A study of Homo sapiens with 12 samples.

Results

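At 844 sites in RT112 cells, ARID1A was called with the Abcam antibody at the first promoter of a protein-coding gene, with no H3K4me3 called over the same bases. Each of these regions shared bases with a region of the CST antibody. The CST region could itself lie outside the first promoter, as at TNFRSF18. The 844 regions were chosen by the region calls themselves, from 37501 regions of the Abcam antibody on chromosomes 1 to 22 and X. Of these, 28609 overlapped a region of the CST antibody, 22210 of those overlapped no H3K4me3 region, and 844 of those lay within 1 kb of a protein-coding transcription start site (TSS) that was itself within 5 kb of the most upstream protein-coding TSS of its gene. Such a TSS is called a first TSS here, and the 1 kb on either side of it a first promoter. The 844 regions lay at the first promoters of 860 genes, 4.38% of the 19626 protein-coding gene records of GENCODE 44. Among the 9772 genes with no H3K4me3 region in any first promoter, 803 carried a chosen region, or 8.22%. These shares follow from the choice and are given as a base for the counts of gene groups.

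The study profiled RT112, an established line of human bladder transitional cell carcinoma without an ARID1A mutation, by CUT&RUN, in which an antibody guides a nuclease that releases the DNA around its target. The labels give no treatment, and cells were thawed from frozen aliquots and assayed in a single batch, with libraries made in 2 batches whose samples are not named. The 12 samples formed 4 groups of 3 replicates: ARID1A with the Abcam antibody, ARID1A with the CST antibody, H3K4me3, and IgG. The lists used here were merged over the 3 replicates by the authors and hold positions only, so neither replicate error nor sequencing depth can be given, and a region missing from a list may lie just under the calling threshold. All intervals and tests are over genes or regions of the merged lists, which are not replicates, and cover counting error only.

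ARID1A is the largest subunit of the canonical BAF form of SWI/SNF, a complex that uses ATP to slide and evict nucleosomes. It occupies enhancers as well as promoters, and in many epithelial cells its sites coincide with those of AP-1 and TEAD factors. H3K4me3 is deposited around the start sites of active and poised genes, above all at CpG islands, where CpG dinucleotides escape the depletion seen in the rest of the genome. Promoters outside CpG islands more often belong to genes used in few cell types, and some of these carry a TATA box just upstream of the start. Many genes have several start sites, so a first promoter can be silent while a promoter further inside the gene is in use.

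The labelled cell type was checked by H3K4me3 at marker promoters. H3K4me3 was called at a promoter of all 9 urothelial and epithelial markers, which include KRT7, KRT8, KRT18, GATA3 and GRHL2, at 2 of 4 basal markers, TP63 and CD44, at 0 of 5 fibroblast markers and at 0 of 4 immune markers. Among the markers, EPCAM, KRT5, COL1A1, VIM and FAP had a chosen ARID1A region.

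The sites differed widely in sequence, and a few are shown to make the differences visible. All are from hg38 and are written 5′ to 3′ in the direction of the gene. FPR1, IL7R, SH3BGRL3 and ERCC1 were taken as the widest regions of their kind, and ENKUR, SPRR3, IVL, CHD2 and ABCC2 were added after the values were seen. The first set shows the AP-1 word (TGACTCA or its complement TGAGTCA, in capitals) closest to the midpoint of a region. It lies at chr19:51806128-51806248 on the minus strand for FPR1, at chr10:25061886-25062006 on the minus strand for ENKUR, and at chr5:35857975-35858095 on the plus strand for IL7R.
FPR1: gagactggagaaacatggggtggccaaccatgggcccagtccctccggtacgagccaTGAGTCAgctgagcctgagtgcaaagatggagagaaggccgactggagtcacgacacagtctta
ENKUR: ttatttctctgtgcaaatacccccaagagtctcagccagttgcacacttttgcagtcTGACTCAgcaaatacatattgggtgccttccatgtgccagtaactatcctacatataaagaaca
IL7R: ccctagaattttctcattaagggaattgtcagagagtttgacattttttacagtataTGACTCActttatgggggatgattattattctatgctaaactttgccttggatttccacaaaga
The word began 2076 bp upstream of the TSS of FPR1, in a stretch annotated as intron of FPR3 and ZNF577, 330 bp downstream of the TSS in an intron of ENKUR, and 1140 bp downstream in an intron of IL7R.

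The second set shows 101 bases around start sites that carry the word TATAAA (in capitals) 20 to 40 bp upstream. These lie at chr5:35856832-35856932 for IL7R, chr1:153001687-153001787 for SPRR3 and chr1:152908486-152908586 for IVL, all on the plus strand.
IL7R start site: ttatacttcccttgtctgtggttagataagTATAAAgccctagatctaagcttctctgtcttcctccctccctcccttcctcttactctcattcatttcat
SPRR3 start site: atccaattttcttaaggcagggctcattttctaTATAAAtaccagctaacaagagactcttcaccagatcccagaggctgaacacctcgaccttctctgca
IVL start site: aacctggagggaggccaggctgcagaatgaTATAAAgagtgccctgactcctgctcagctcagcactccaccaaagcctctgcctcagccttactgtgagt
TATAAA began 30 bp upstream of the occupied TSS of IL7R, 27 bp upstream of that of SPRR3 and 30 bp upstream of that of IVL. The IL7R start site used here was not the most upstream one, so its TATA word lies inside the annotated gene.

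The third set shows 151 bases from 100 bp before to 50 bp after the start site, with each CG in capitals, at CpG-rich promoters (SH3BGRL3, chr1:26279986-26280136, and CHD2, chr15:92904373-92904523, both on the plus strand) and at promoters that were not CpG-rich (ERCC1, chr19:45478778-45478928 on the minus strand, and ABCC2, chr10:99782540-99782690 on the plus strand).
SH3BGRL3: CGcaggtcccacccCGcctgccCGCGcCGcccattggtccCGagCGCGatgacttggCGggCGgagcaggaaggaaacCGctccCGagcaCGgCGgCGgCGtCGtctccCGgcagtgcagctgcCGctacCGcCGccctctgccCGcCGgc
CHD2: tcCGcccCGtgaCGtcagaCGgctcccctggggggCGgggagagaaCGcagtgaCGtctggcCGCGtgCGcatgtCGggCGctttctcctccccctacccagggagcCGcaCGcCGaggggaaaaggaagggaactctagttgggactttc
ERCC1: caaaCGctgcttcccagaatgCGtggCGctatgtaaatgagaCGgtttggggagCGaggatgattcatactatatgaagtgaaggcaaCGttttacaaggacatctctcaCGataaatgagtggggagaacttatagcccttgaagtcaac
ABCC2: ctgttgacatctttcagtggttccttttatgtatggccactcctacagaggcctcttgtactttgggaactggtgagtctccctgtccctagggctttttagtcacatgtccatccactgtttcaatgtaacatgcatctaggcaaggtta
These stretches held 23 CG at SH3BGRL3, 15 at CHD2, 7 at ERCC1 and 0 at ABCC2. The ABCC2 region ran from -7261 to -521 bp of this TSS, so the printed ABCC2 stretch lies outside it. ERCC1 missed the definition of CpG-rich by its GC content alone, with 48.9% GC and a CpG observed/expected ratio of 0.773 over 500 bp on either side of the TSS.

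The regions were of ordinary width. Their median width was 1558 bp (quartiles 1230 and 2076, range 416 to 7082 bp), against 1855 bp for the 5207 shared ARID1A regions with H3K4me3 at first promoters, 1573 bp for all shared regions without H3K4me3 and 1486 bp for all Abcam regions. The overlapping CST region had a median width of 1477 bp, and 821 of the 844 regions overlapped a single CST region. Most served 1 gene: 794 lay at the first promoter of 1 gene, 48 of 2 genes and 2 of 3 genes. One of these 2 joined NPRL2, a subunit of the GATOR1 complex that restrains mTORC1, with CYB561D2 and ENSG00000272104 (chr3:50350267-50351737, 1471 bp), and the other joined CCDC159, RAB3D, a small GTPase of secretory granules, and TMEM205 (chr19:11345289-11347255, 1967 bp).

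Chosen regions covered a start site less often than regions with H3K4me3. A first TSS was covered by 643 of 844 (76.2%, 95% exact interval 73.2% to 79.0%), against 5017 of 5207 shared regions with H3K4me3 at first promoters (96.4%, 95.8% to 96.8%). Both H3K4me3 and distance to the TSS were used in the choice, so these shares are a description without a test. The regions with H3K4me3 were also wider (medians 1855 and 1558 bp), and the part of width was not tested. The midpoint lay a median of 310 bp from the nearest first TSS (quartiles 123 and 860 bp), on the downstream side in 375 (44.4%). By annotation, 331 midpoints (39.2%) lay outside protein-coding genes, 326 (38.6%) in introns, 135 (16.0%) in UTR exons and 52 (6.16%) in coding exons. A lncRNA TSS lay within 1 kb of 112 regions (13.3%), so that the occupied start site need not be that of the protein-coding gene.

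**Figure D1:**
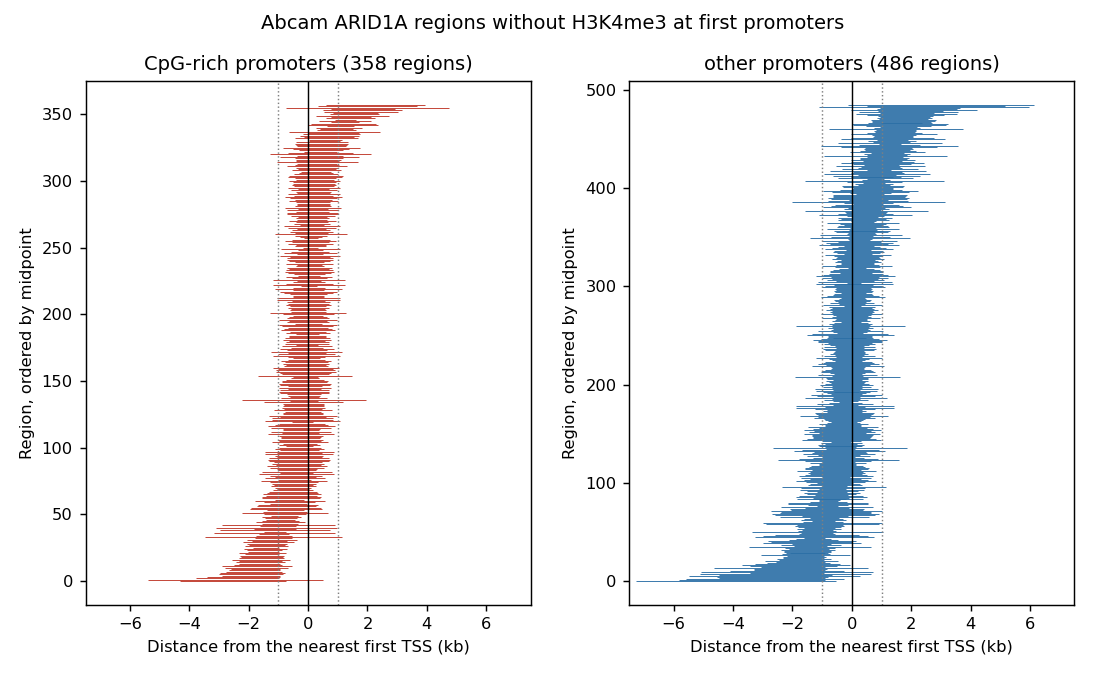
Extent of each of the 844 Abcam regions against distance (kb, in the direction of the gene) from the nearest first TSS, 1 line per region, ordered by midpoint, for 358 regions at CpG-rich promoters (left) and 486 at other promoters (right); dotted lines mark the 1 kb window. A first TSS was covered by 80.4% of the CpG-rich set and by 73.0% of the other set.

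H3K4me3 was usually far away. The nearest H3K4me3 region lay a median of 46453 bp from a chosen region (quartiles 14188 and 117160 bp), within 1 kb of 46 regions (5.45%), at 1 to 10 kb from 124 (14.7%), at 10 to 100 kb from 438 (51.9%) and beyond 100 kb from 236 (28%). At the edge of the choice, the region upstream of ECT2, a regulator of cytokinesis, adjoined an H3K4me3 region without sharing a base, and those of TMEM87A and RPL26, a ribosomal protein of the large subunit, lay 21 and 69 bp from one. Just beyond that edge, the regions at IGFBP3, FBXO7 and MSX2 were left out for sharing 5, 59 and 103 bp with H3K4me3. Likewise, the occupied TSSs of DNAJC18, ERAP2 and GDE1 lay 4966, 4947 and 4930 bp from the most upstream TSS and were kept, while those of SOX13, TSPAN14 and SERPIND1, at 5014, 5037 and 5068 bp, were not.

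In 57 of the 860 genes (6.63%), H3K4me3 lay in a first promoter without touching the ARID1A region. CHD2, a chromatin remodeller whose region of 5517 bp with Abcam and 5225 bp with CST was among the widest, had H3K4me3 116 bp away. N4BP1, an inhibitor of the NF-kB pathway, had it 77 bp away, UBB, a polyubiquitin gene, 112 bp, and ERRFI1, a feedback inhibitor of EGFR, 156 bp. At KRT17 the gap was 308 bp. The marked promoter was not always that of the occupied TSS, as at NDRG1, where the nearest H3K4me3 was 3295 bp from the ARID1A region. Leaving out regions with H3K4me3 in any first promoter changed none of the comparisons of CpG content or TATA words that follow.

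The widest regions lay at genes of varied function. They were those of ERCC1, a subunit of the nuclease of nucleotide excision repair (7082 bp with Abcam, 2209 bp with CST), and ABCC2, an export pump for conjugated compounds (6740 and 6043 bp). Next came a region shared by GSG1 and ENSG00000289766 (6260 and 5986 bp), SH3BGRL3 (5888 and 2368 bp), FPR1, the formyl peptide receptor of phagocytes (5821 and 6330 bp), and SNX31, a sorting nexin (5762 and 2512 bp). ATAD1, which extracts misplaced proteins from the outer mitochondrial membrane (5754 and 5020 bp), CHD2, ENSG00000258989 (5305 and 5479 bp), ZMYND8, a reader of histone marks (5194 and 5379 bp), and ENKUR, a protein of cilia and sperm tails (5159 and 2107 bp), completed the 12. Where an Abcam region overlapped several CST regions, the CST width is that of the widest one. This held for ERCC1, with 3 CST regions, and for SH3BGRL3, SNX31 and ENKUR, with 2 each, so their widths do not compare the extent of the antibodies.

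**Figure D2:**
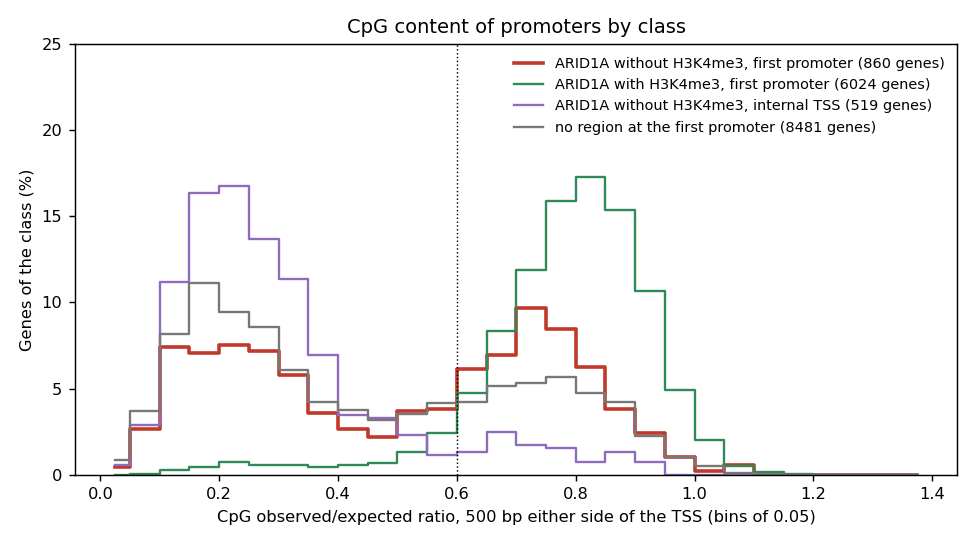
Distribution of the CpG observed/expected ratio within 500 bp of the TSS, as the share of genes (%) in bins of 0.05, for 860 genes with ARID1A without H3K4me3 at the first promoter (red), 6024 with ARID1A and H3K4me3 there (green), 519 with ARID1A without H3K4me3 at an internal TSS (purple) and 8481 with no region at the first promoter (grey); the dotted line marks 0.6. The red line has 2 humps, with a median of 0.543, where the green line has 1, with a median of 0.802.

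The first comparison asked whether promoters with ARID1A but no H3K4me3 were CpG-poor. They were mixed. A promoter was called CpG-rich at a GC content of at least 50% and a CpG observed/expected ratio of at least 0.6 over 500 bp on either side of the TSS nearest the region. Of the 860 genes, 378 (44%) were CpG-rich, against 5440 of 6024 genes whose first promoter carried shared ARID1A with H3K4me3 (90.3%). The difference was -46.4 percentage points (95% interval -49.7 to -42.9, two-sided Fisher's exact test, p = 5.93e-201 after Benjamini-Hochberg adjustment over 8 tests). Median GC was 57.1% against 64.0%. Over all 19626 genes, read at the most upstream TSS, 11722 (59.7%) were CpG-rich, with a median GC of 59.7%. The 860 genes thus lay below protein-coding promoters as a whole in both.

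The same promoters were more often CpG-rich than promoters where nothing was called. Of 8481 genes with no region of the 3 lists at the first promoter, 2694 (31.8%) were CpG-rich, 12.2 points fewer (8.76 to 15.7, adjusted p = 3.89e-12 by the same Fisher's exact test). When only regions of the median width of their list or more were kept, that difference was 4.23 points with an adjusted p of 0.105 by Fisher's exact test, and the call was lost. In this setting, here and below, genes with no region took in those with only narrower ARID1A regions, and 33.1% of them were CpG-rich. Internal start sites were different again. Of 519 genes with ARID1A without H3K4me3 only at a TSS over 5 kb inside the gene, 50 (9.63%) were CpG-rich there, 34.3 points fewer than the 44% above (29.98 to 38.3, adjusted p = 1.73e-44, Fisher's exact test). Measured at the most upstream TSS in every class, the sign turned. There, 45.5% of genes with a first-promoter region and 60.7% of genes with an internal region were CpG-rich (-15.2 points, adjusted p = 9.54e-08, Fisher's exact test). The internal class was then read away from its ARID1A regions without H3K4me3. Its genes could still have shared ARID1A with H3K4me3 at the first promoter. The reason for the turn was not tested.

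The 378 CpG-rich genes were led by SH3BGRL3, CHD2, ST6GALNAC4, a sialyltransferase, FAM174B, CLU, which encodes the secreted chaperone clusterin, and CEMIP, which breaks down hyaluronan. Their 358 regions were slightly narrower than the other 486 (medians 1504.5 and 1643.5 bp) and no closer to H3K4me3, with median distances of 53250.5 and 38816 bp and H3K4me3 within 1 kb of 6.15% and 4.94%. In 105 of the CpG-rich genes, no H3K4me3 was called within 100 kb. Among these were CLU, at 153424 bp, FABP5, a fatty acid binding protein, at 168195 bp, RGS2, a brake on G protein signalling, at 247942 bp, and IL6R, the interleukin 6 receptor, at 130613 bp. CpG content was read at the TSS and can differ from that of the ARID1A region. Over 500 bp at the region's midpoint, the CpG ratio was 0.123 at SH3BGRL3, 0.149 at CLU, 0.137 at FABP5, 0.265 at RGS2 and 0.549 at IL6R. The median over the 358 regions was 0.732. VIM, which encodes the mesenchymal intermediate filament vimentin, is another of the 105. Its promoter had 68.9% GC and a CpG ratio of 0.898, and H3K4me3 was 385426 bp away. The ARID1A region of VIM was narrow (705 bp with Abcam, 1385 bp with CST). It lay 896 to 1601 bp downstream of the nearest first TSS and did not cover that TSS. DNA methylation and repressive histone marks were not measured in these samples.

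The word TATAAA, searched on the sense strand with its start 20 to 40 bp upstream of the TSS, stood at 28 of the 860 genes (3.26%). Over all 19626 genes, read at the most upstream TSS, it stood at 629 (3.20%), near the share of the 860. The 3.26% was above the share in genes with ARID1A and H3K4me3 (71 of 6024, 1.18%, difference 2.08 points, 1.04 to 3.51, adjusted p = 3.17e-05, Fisher's exact test). It was below the share in genes with no region (466 of 8481, 5.49%, difference -2.24 points, -3.35 to -0.755, adjusted p = 0.00520, Fisher's exact test). At the internal start sites it stood at 6 of 519 genes (1.16%, difference 2.10 points, 0.429 to 3.64, adjusted p = 0.0204, Fisher's exact test). Among the wider regions alone, the last 2 differences were -1.58 and 2.71 points with adjusted p of 0.235 and 0.0713 by Fisher's exact test. The 28 genes included IL7R, SPRR3, IVL, SPRR1A, S100A9 and TFF1, a secreted trefoil peptide of mucosal surfaces, and the histone genes H3C1 and H4C1, which share 1 region of 2319 bp. None of the 57 genes with H3K4me3 in a first promoter had the word, with an upper limit of 6.27% that includes the 3.26% of all 860.

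Genes with a chosen region more often had further start sites. A protein-coding TSS over 5 kb from the most upstream one was annotated in 366 of the 860 genes (42.6%), against 2311 of 6024 genes with ARID1A and H3K4me3 (38.4%, difference 4.19 points, 0.705 to 7.74, adjusted p = 0.0204, Fisher's exact test) and 2685 of 8481 genes with no region (31.7%, difference 10.9 points, 7.49 to 14.4, adjusted p = 4.13e-10, Fisher's exact test). The first of these differences was lost among wider regions (4.95 points, adjusted p = 0.0887) and without regions that had H3K4me3 in any first promoter (3.29 points, adjusted p = 0.0763, Fisher's exact test in both). Over all 19626 genes, 6929 (35.3%) had a further TSS. The median number of start sites per gene was 3, against 4 for genes with ARID1A and H3K4me3 and 2 for genes with no region. A gene was chosen if any of its first promoters held a region, and had no region only if none did. Genes with more first TSSs thus had more chances to be chosen, and the part of this in the differences was not tested. The region lay at the most upstream TSS in 803 of the 860 genes, and 167 genes had a single TSS.

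At 94 of the 366 genes with further start sites (25.7%, 21.3% to 30.5%), H3K4me3 was called at one of them. The share was 11.6% (268 of 2311) for genes with ARID1A and H3K4me3 at the first promoter and 16.7% (448 of 2685) for genes with no region there. H3K4me3 was used in the choice, so these shares are a description without a test. In these 94 genes, a first TSS with ARID1A and no overlapping H3K4me3 lay upstream of a marked TSS, although some, such as IKBKG, also had H3K4me3 in a first promoter. Of the 94 genes, 17 (18.1%) were CpG-rich at the first promoter, against 339 of the 716 genes with no H3K4me3 at any TSS (47.3%). Shared ARID1A was called at a further TSS in 111 of the 366 genes (30.3%), against 371 of 2311 (16.1%) and 434 of 2685 (16.2%).

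The widest examples were ERCC1, with H3K4me3 54461 bp downstream of its most upstream TSS, ATAD1 at 23117 bp, VGLL4, a cofactor that competes with YAP for TEAD factors, at 50604 bp, BACH1, a haem-regulated repressor, at 104851 bp, and SEMA4B, a semaphorin, at 24316 bp. ATF3, a stress-induced factor of the AP-1 group, had ARID1A without H3K4me3 at its first promoter and H3K4me3 43427 bp inside the gene. LAMA3, the alpha chain of laminin-332, had it 183567 bp inside, and EPCAM, an epithelial adhesion molecule, 24153 bp inside. AHNAK, a large scaffold protein, had an Abcam region of 3041 bp and a CST region of 6783 bp at the first promoter, with H3K4me3 at a TSS 9402 bp further on. At VGLL4 and BACH1, both ARID1A antibodies were also called at the marked promoter given above. Another marked promoter of VGLL4, with its TSS at 127435 bp, had an Abcam region but no CST region.

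**Figure D3:**
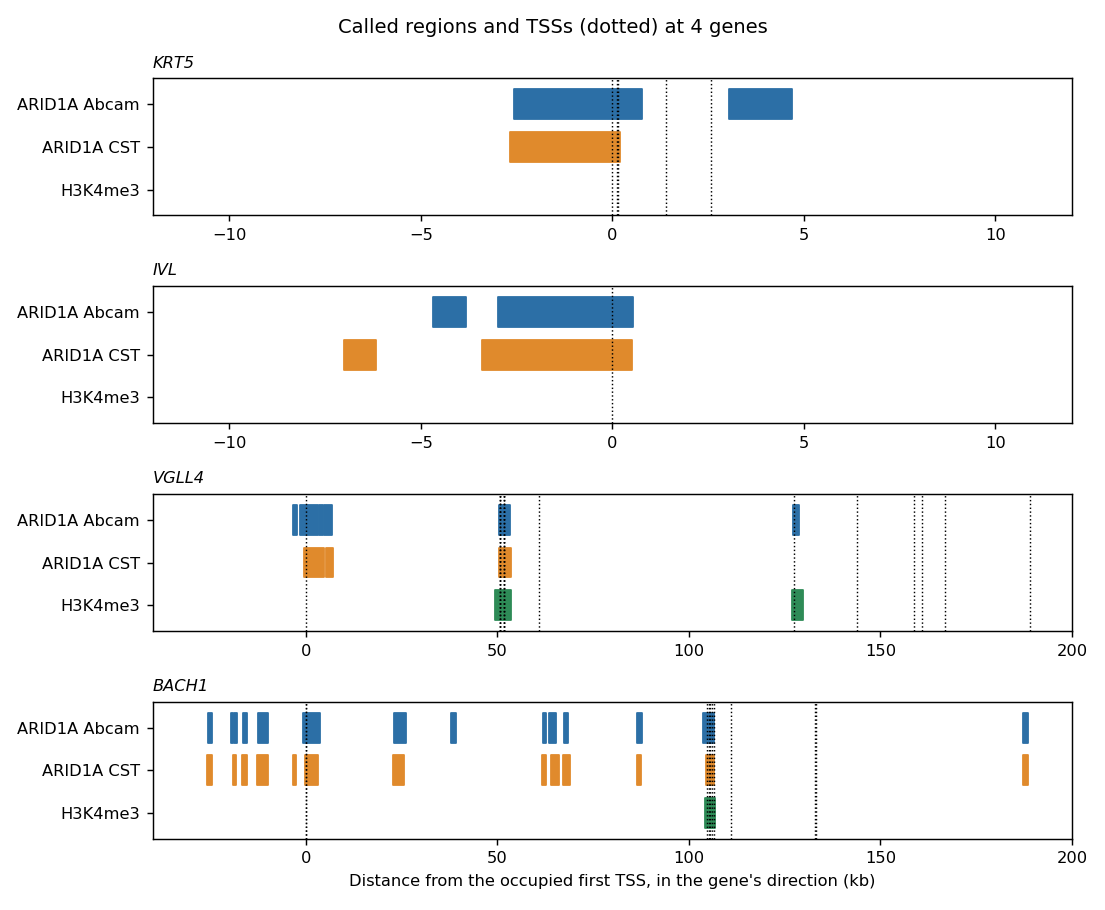
Called regions at KRT5, IVL, VGLL4 and BACH1 (rows: ARID1A Abcam, ARID1A CST, H3K4me3) against distance in kb from the occupied first TSS, in the direction of the gene, with protein-coding TSSs of the gene as dotted lines. KRT5 and IVL have ARID1A over the TSS and no H3K4me3 in the 12 kb shown on either side, while VGLL4 and BACH1 have H3K4me3 at start sites 50604 and 104851 bp inside the gene.

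Gene groups were then read against the share of 8.22% among genes without H3K4me3 at a first promoter, as counts without a test. Genes of stratified epithelium stood on both sides of it by count. The intervals of the keratin, cornified envelope and keratin-associated lists all held 8.22%. Among keratins, 7 of 55 genes had a chosen region, 6 of them among the 47 without H3K4me3 in a first promoter (12.8%, 4.83% to 25.7%). KRT5, the type II keratin of basal cells, had regions of 3355 bp with Abcam (chr12:52519753-52523107) and 2885 bp with CST (chr12:52520328-52523212), both over its most upstream TSS, and the nearest H3K4me3 was 281960 bp away. KRT86, a hair keratin (4908 and 1842 bp), KRT17, a keratin of wounded epidermis (3408 and 2345 bp), and KRT16, likewise induced in wounds, with 2 chosen regions (2086 and 2180 bp, and 1031 and 1385 bp), were the others with the widest regions. KRT23 (1513 and 890 bp), KRT3 and KRT78 completed the 7. The Abcam regions of KRT86 and, further on, SLC16A7 and ZNF750 overlapped 2 CST regions each. KRT86, KRT16 and KRT17 have near-identical copies, and reads that map to several places were removed by the authors, so their regions are uncertain.

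Of the genes of the cornified envelope and epidermal differentiation, 5 of 51 without H3K4me3 were chosen (9.80%). IVL, involucrin, had regions of 3524 bp with Abcam and 3922 bp with CST over its only TSS (chr1:152905568-152909091 with Abcam), and SPRR3, a small proline-rich protein of the same envelope, had 3600 and 3109 bp (chr1:152999066-153002665 with Abcam). SPRR1A (2178 and 1860 bp) and SPRR1B lay in the same stretch, and LCE1E had a narrow region (800 and 551 bp). IVL, SPRR1A, SPRR3 and SPRR1B formed a run of 4 chosen regions between 152905568 and 153031512 on chromosome 1, and the nearest H3K4me3 was 500834 bp or more from each of the 4. SPRR1A and SPRR1B are close copies and are uncertain in the same way. Keratin-associated proteins were below the base by count, with 4 of 94 (4.26%, 1.17% to 10.5%: KRTAP29-1, KRTAP4-7, KRTAP2-1 and KRTAP2-3).

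Of S100 proteins, small calcium-binding proteins, 3 of 10 genes without H3K4me3 were chosen (30%, 6.67% to 65.2%): S100A5 (1790 and 1020 bp), S100A9 (1756 and 1382 bp) and S100A12 (1486 and 1133 bp). Another 8 of the 20 S100 genes had shared ARID1A with H3K4me3. Kallikrein proteases had 3 of 16 (18.8%, 4.05% to 45.6%: KLK6, KLK15 and KLK10) and clade B serpins 1 of 10 (SERPINB13, 2080 and 1368 bp). The desmosome list had 1 of 8 (DSC2, desmocollin 2, whose promoter was CpG-rich) and claudins and connexins 2 of 36 (GJB5 and CLDN9). Mucins and uroplakins had 3 of 19 (15.8%, 3.38% to 39.6%) and the LY6 and PLAUR family 2 of 15 (SLURP2 and LY6K). Among mucins and uroplakins were MUC20, a membrane mucin (3999 and 3560 bp), MUC15 (843 and 1240 bp) and UPK2, a plaque protein of the bladder's umbrella cells (1343 and 1171 bp).

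Genes of the matrix and of adhesion to it were above the base by count and those of its breakdown below it, but the interval of each list held 8.22%. The intervals were 4.03% to 32.7% for integrins and laminins and 3.20% to 26.7% for collagens. Integrins and laminins had 4 of 28 (14.3%), and 5 of 42 when genes with H3K4me3 in a first promoter were included. ITGBL1, an integrin-like protein that this list includes, had 2 chosen regions, of 2857 bp with Abcam and 2536 bp with CST and of 1710 and 4308 bp. ITGB2, the beta chain of leukocyte integrins, had 1249 and 1210 bp. Collagens had 4 of 35 (11.4%), namely COL1A1, a chain of fibrillar type I collagen (2020 and 2418 bp, chr17:50199419-50201438 with Abcam), COL5A2 (1443 and 1316 bp), COL7A1, the anchoring fibril collagen (1224 and 926 bp), and COL6A1 (1018 and 600 bp). Matrix metalloproteinases and ADAMTS genes had 0 of 36, with an upper limit of 9.74%.

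Signalling genes differed by list, and no list was tested against another. Interleukin and interferon receptors, a list that includes the receptor antagonist IL1RN, had 8 of 33 (24.2%, 11.1% to 42.3%), the only list with at least 8 genes whose interval lay wholly above 8.22%. That interval was not adjusted for the 34 lists read, which were set with earlier results of these data known. IL7R, the receptor for interleukin 7, led with 4632 bp with Abcam (chr5:35855844-35860475) and 3700 bp with CST (chr5:35856557-35860256), followed by IL6R (2656 and 1845 bp), IL20RB (2399 and 1910 bp) and IL1RN (2223 and 2066 bp), and by IL1R1, IL22RA1, IL31RA and IFNAR2. Interleukins had 1 of 34 (2.94%), namely IL18 (2730 and 2273 bp), though IL1F10, a family member with 3 chosen regions, is not on that list by its symbol. Interferon genes had 0 of 21 (upper limit 16.1%). Chemokines had 5 of 42 (11.9%), led by CX3CL1, a membrane-bound chemokine (2016 and 1811 bp), CXCL17 (1851 and 1972 bp), CCL27 (1074 and 1302 bp) and CXCL9 (1030 and 1873 bp). The TNF and TNF receptor superfamily had 2 of 25 (8%), the ligand TNFSF15 (3211 and 3008 bp) and the receptor TNFRSF18 (1039 and 496 bp).

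Transport and metabolic genes ranged from below to above the base by count. Solute carriers had 19 of 221 (8.60%, 5.26% to 13.1%), led by SLC16A7, a monocarboxylate transporter (2932 and 1809 bp), SLC25A45 (2506 and 2519 bp), SLC7A2, a carrier of cationic amino acids (2363 and 1673 bp), and SLC35E4 (2240 and 1476 bp). Aldo-keto reductases and aldehyde dehydrogenases had 4 of 18 (22.2%, 6.41% to 47.6%), among them ALDH1A2, which makes retinoic acid (1751 and 1848 bp), besides ALDH3B1 (2772 and 1772 bp), ALDH3B2 and ALDH4A1. Cytochrome P450 and UGT enzymes had 4 of 64 (6.25%), with UGT1A1, which conjugates bilirubin, the widest (2167 and 1827 bp), then CYP4F12, CYP3A43 and CYP4F3. Lipoxygenases and phospholipases A2 had 2 of 22 (9.09%: PLA2G4F and PLA2G4C). Potassium, sodium and TRP channels had 4 of 120 (3.33%, 0.916% to 8.31%: TRPV2, TRPV3, KCNG3 and KCNK9). Other named G protein-coupled receptors had 5 of 129 (3.88%, 1.27% to 8.81%), led by GPR19 and LPAR5, a receptor for lysophosphatidic acid, then GPR146 and FFAR4, a fatty acid receptor. Olfactory receptors had 1 of 381 (OR10H1, 0.262%, 0.00664% to 1.45%), which lowers the base itself.

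Transcription factor families were represented unevenly. FOX, SOX and GATA factors had 0 of 40 (upper limit 8.81%) and HOX genes 0 of 21 (upper limit 16.1%). Protocadherins, adhesion proteins that are not factors, had 0 of 61 (upper limit 5.87%). ETS and KLF factors had 3 of 18 (16.7%) and 4 of 42 in all: ELK1 (1742 and 865 bp) and KLF11 (1120 and 1020 bp) at CpG-rich promoters, KLF5, an epithelial factor (1042 and 1507 bp), with H3K4me3 541 bp away, and KLF9 (1003 and 1126 bp). AP-1 factors had ATF3 as 1 of 3, because 11 of the 14 genes carried ARID1A with H3K4me3. Genes with ZNF names, not all of which need be transcription factors, had 12 of 167 (7.19%). They were led by ZNF608 (4240 and 4296 bp), ZNF185 (3696 and 4759 bp), ZNF750, a factor of epidermal differentiation (2979 and 2127 bp), and ZNF395 (2593 and 1600 bp). Of cytosolic ribosomal protein genes only RPL26, 1 of 83, was chosen, and it had H3K4me3 in a first promoter.

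Lists of markers of other cell types were below the base by count, with 1 of 20 immune genes (CD68, a lysosomal protein of macrophages, 1267 and 980 bp), 1 of 17 neuronal genes (ELAVL3, an RNA-binding protein, 1219 and 1146 bp), 0 of 17 muscle genes (upper limit 19.5%) and 0 of 20 hepatocyte genes (upper limit 16.8%). The fibroblast markers used to check the cell line went the other way: 3 of 5, COL1A1, VIM and FAP, a membrane protease (2470 and 2910 bp), had a chosen region, and 0 of 5 had H3K4me3 at a promoter. The regions of VIM (896 to 1601 bp) and FAP (-3307 to -837 bp) did not cover the nearest first TSS. The intervals of all these short lists are wide, and neighbouring genes can share a region.

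**Figure D4:**
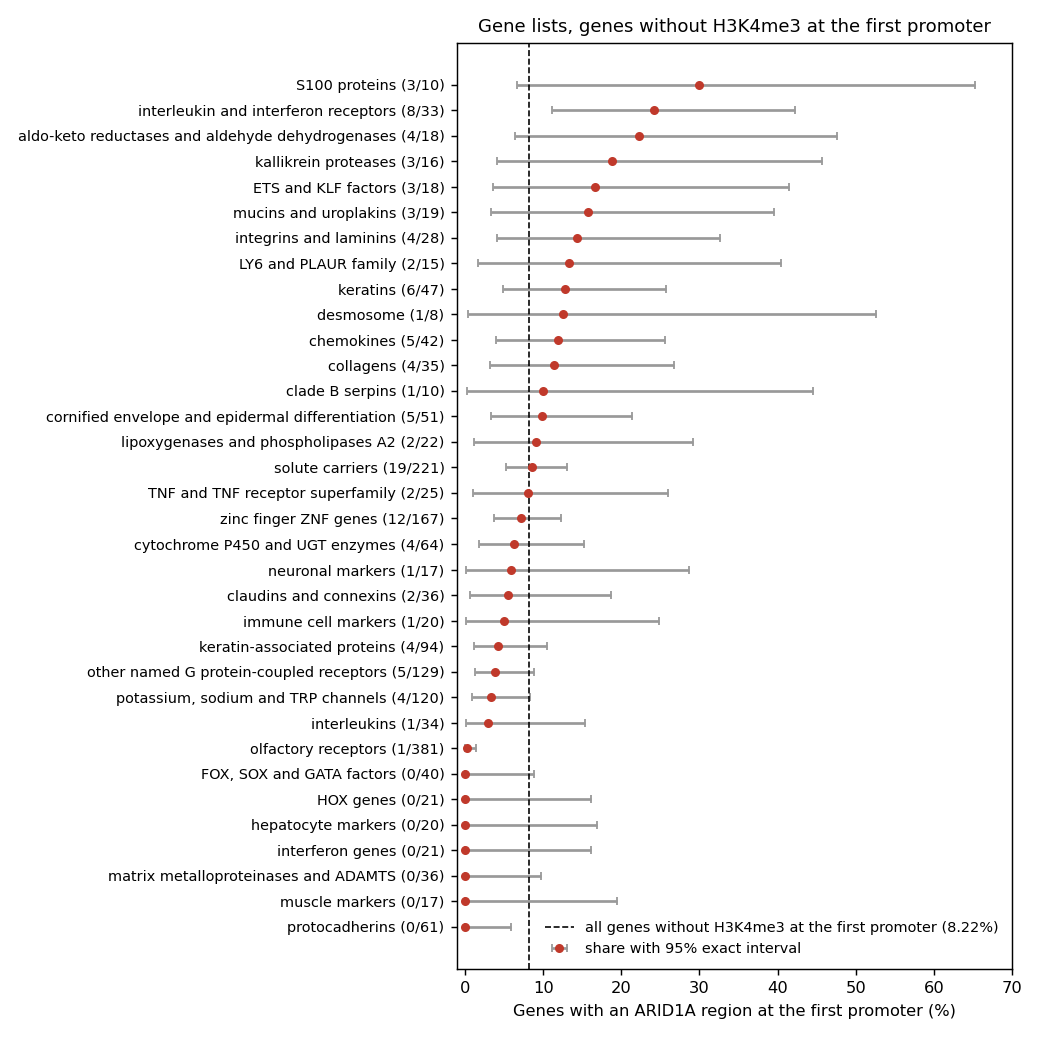
Share (%) of genes without H3K4me3 at the first promoter that carry ARID1A there, for the 34 gene lists with at least 8 such genes, with 95% exact intervals; chosen genes over such genes stand beside each name and the dashed line marks 8.22%. Interleukin and interferon receptors lie to the right of the line with their whole interval, and olfactory receptors and protocadherins to its left. The intervals are not adjusted for the number of lists.

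Chosen regions also came in runs. Within 100 kb of each other on a chromosome, 228 of the 844 regions formed 100 runs. Besides the run at IVL, these included 3 regions at KRT16 and KRT17 between 41612553 and 41620689 on chromosome 17, and 4 at IL1F10, an interleukin 1 family member, and IL1RN between 113067954 and 113118682 on chromosome 2. Others held CLEC7A and OLR1, neighbouring lectin-like receptors, with TMEM52B (chromosome 12, from 10129949 to 10172963), and OASL with P2RX7 and P2RX4, which are ATP-gated channels (chromosome 12, from 121038274 to 121210903). The share of genes with a chosen region ranged from 3.10% on chromosome 5 to 5.94% on chromosome 21.

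Short words were counted in 500 bp at the midpoint of each region, on both strands, as a description. No word contains another, and shares differed with CpG content. The AP-1 words TGACTCA and TGAGTCA stood in 25.7% of the 844 regions (22.8% to 28.8%), in 14.5% of those at CpG-rich promoters and 34.0% of the others. The share was 33.0% at internal TSSs, 38.6% in the 20731 shared regions without H3K4me3 and without a protein-coding TSS within 1 kb, 6.07% in regions with H3K4me3 at first promoters, and 5.46% around the most upstream TSS of all genes. Regions at promoters that were not CpG-rich thus had the AP-1 words nearly as often as regions away from promoters, as at FPR1, ENKUR and IL7R above.

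The SP/KLF word GGGCGG ran the other way, at 44.2% of chosen regions, 69.6% of those at CpG-rich promoters and 25.5% of the others, against 19.5% at internal TSSs, 9.32% away from promoters, 76.9% with H3K4me3 and 64.1% around all genes. The ETS word CCGGAAG stood in 9.48%, with 14.8% at CpG-rich and 5.56% at other promoters, against 3.67%, 2.01%, 18.3% and 15.6% in the same 4 sets. The E-box CACGTG stood in 8.29%, against 12.1% with H3K4me3 and 11.2% around all genes, and the E2F word TTCCCGCC in 2.73%, against 8.28% and 6.07%. The GATA word AGATAA stood in 19.4%, with 14.0% and 23.5% by CpG content, against 31.9% away from promoters, 8.26% with H3K4me3 and 11.8% around all genes. The TEAD word GGAATG stood in 27%, against 32.7% away from promoters, 17.7% with H3K4me3 and 19% around all genes, and the FOX word TGTTTAC in 7.58%, against 11.8%, 3.61% and 3.76%. The NF-Y word CCAAT differed little, at 45.6% of chosen regions, 50.3% away from promoters, 42.8% with H3K4me3 and 44.4% around all genes.

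Rarer words included the GRHL word AACCGGTT, at 8 of 844 regions (0.948%) against 0.347% away from promoters, 0.288% with H3K4me3 and 0.194% around all genes. The CREB/ATF word TGACGTCA stood at 16 (1.90%, against 2.64% around all genes), the POU word ATTTGCAT at 26 (3.08%, against 1.99%) and the NF-kB word GGGACTTTC at 3 (0.355%, against 0.586%). Base composition moved with these shares: the 500 bp had a median GC of 62.2% at CpG-rich and 49.6% at other chosen promoters, against 47.2% at internal TSSs, 43.6% away from promoters and 65.0% with H3K4me3, and its part in them was not tested. A word in a region is a match of letters and not evidence of binding.

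**Figure D5:**
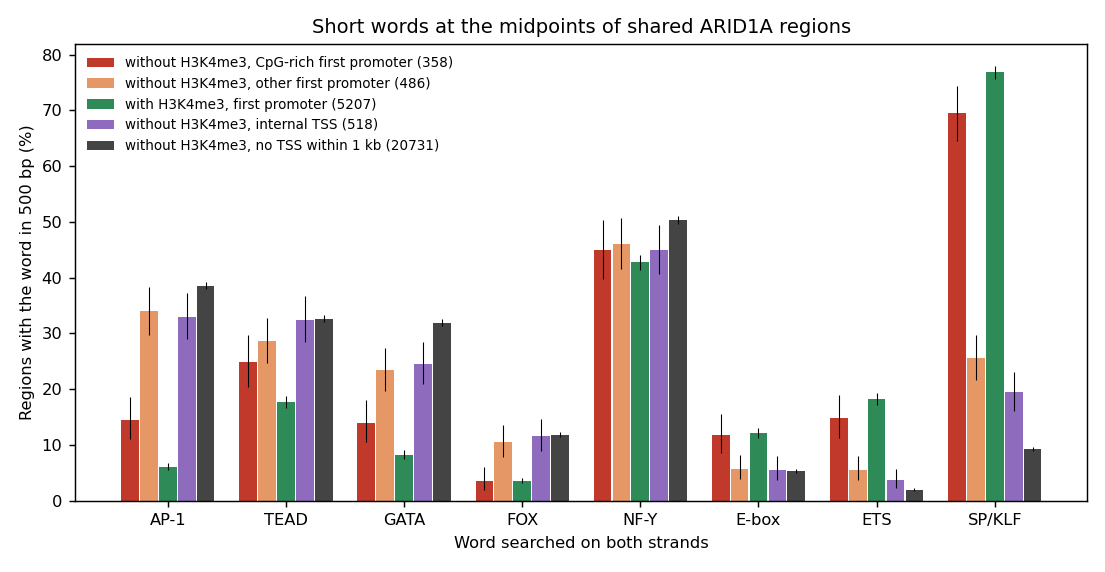
Share (%) of shared ARID1A regions with each short word in 500 bp at the midpoint, with 95% exact intervals, for regions without H3K4me3 at CpG-rich and at other first promoters, regions with H3K4me3 at first promoters, and regions without H3K4me3 at internal TSSs and away from TSSs. The CpG-rich set lies near the set with H3K4me3 for the SP/KLF and ETS words, and the other set near the regions away from promoters for the AP-1 words (34.0% and 38.6%).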

How the data were processed

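Per the methods, the authors trimmed reads with cutadapt, aligned them to GRCh38 and the E. coli genome with bwa-mem2, removed duplicates (Picard) and reads that did not map uniquely, scaled replicates by the spike-in, called peaks from the coverage of whole fragments with SEACR, kept the top of the distribution and merged replicates with bedtools. SEACR's relaxed mode is named in the methods and its stringent mode in the names of the deposited lists, so the threshold is uncertain. Tool versions are not given in the sources used here. The deposited lists hold chromosome, start and end, with no count, signal, score or p-value, so depth is unknown. Merging keeps a region carried by 1 replicate, and the methods speak of biologic replicates for results in general without describing those of these libraries. IgG regions were not analysed here.

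Chromosomes 1 to 22 and X were used, leaving out 152 Abcam, 159 CST and 14 H3K4me3 regions. A shared base (1 bp) counted as overlap, and positions count from 1. TSSs were the starts of protein-coding transcripts in GENCODE 44, and sequence came from hg38. Genes of the compared classes were read at the first-promoter TSS nearest the region, or the most upstream TSS without a region. Shares were compared by two-sided Fisher's exact test (scipy 1.17.1, python 3.11.15), adjusted by Benjamini-Hochberg over 8 tests, with Newcombe intervals for differences and exact (Clopper-Pearson) intervals for shares. The scripts were tested on simulated data. The genes chosen, the 36 gene lists, the 13 words and the tests were set with earlier results of these data known, and the interleukin list was corrected after its first result because it had taken receptor genes. Named were the 12 genes with the widest Abcam regions, up to 4 of each list by width, regions nearest the limits of the choice and regions at 3 genes. A gene that this rule takes is not reported here. Other named genes were chosen after their values were seen, among them the further list members, the examples with H3K4me3 at another TSS, and those that were CpG-rich, had TATAAA or lay in runs. Alternatives varied the TSS window, the overlap, the widths, the sequence window and the TSS read.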

Additional observations from a re-analysis of the deposited data

How the results depend on the processing

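Of 98 values under 10 alternative settings, 87 kept their direction and side of the threshold or stayed close to the value reported, as did 62 of the 68 values with a test. The exceptions were these. When only regions of the median width of their list or more were kept, 345 regions and 370 genes met the rule, median GC was 56.0%, and 32.1% of genes with further start sites had H3K4me3 at one. Genes with no region then took in those with only narrower ARID1A regions, so the compared class changed as well. There the difference in CpG-rich promoters from genes with no region was 4.23 points (adjusted p = 0.105), those in TATA words were -1.58 points from genes with no region (0.235) and 2.71 from internal start sites (0.0713), and that in further start sites from genes with ARID1A and H3K4me3 was 4.95 (0.0887, Fisher's exact test throughout). This last difference was 3.29 points (adjusted p = 0.0763, Fisher's exact test) without regions with H3K4me3 in any first promoter. At the most upstream TSS in every class, the difference in CpG-rich promoters from internal genes was -15.2 points. With 250 bp on either side of the TSS, median GC was 59.9%. Fewer regions are tested among the wide ones and the compared classes change with them. Beyond that, the cause was not tested.

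No paired analysis was possible because each list was merged over its 3 replicates by the authors, so the replicate numbers carry no values. For the same reason no replicate was left out. Absence of H3K4me3 from a list says only that no region was called at the authors' threshold, which rests on an unknown depth.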
